A study of Mus musculus with 18 samples.

Results

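The genes described here are 10 genes of the antioxidant program of NRF2: the transcription factor itself (*Nfe2l2*), its inhibitor *Keap1*, and 8 enzymes or transporters that it is known to induce (*Nqo1*, *Slc7a11*, *Gclc*, *Gclm*, *Gsr*, *Txnrd1*, *Srxn1* and *Prdx1*). They were taken by gene symbol from the 20615 genes of the table, all 10 were present, and all 10 passed the filter on low counts that left 15789 genes for testing. The RNA was from bone marrow-derived macrophages (BMDMs), which are macrophages grown from bone marrow with M-CSF from L929 cell supernatant. There were 18 samples in 6 groups of 3. BMDMs came from female mice aged 7 to 12 weeks of the strain C57BL/6 (B6) or of C57BL/6.NOD-*Aec1Aec2* (SjSS), a model of Sjögren's syndrome in which intervals of the NOD genome, *Aec1* on chromosome 3 and *Aec2* on chromosome 1, lie on the B6 background.

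In each strain BMDMs were left untreated (control), incubated with apoptotic cells (AC), or incubated with CpG, an oligonucleotide ligand of an endosomal Toll-like receptor. ACs were thymocytes killed with dexamethasone. They were given at 5 per BMDM for 2 h, and the BMDMs were washed and left for another 3 h by the labels, a time that the study's methods section gives as longer. CpG was given at 1 µM for 6 h. The labels give no time after a wash for CpG, but the study describes a wash and further incubation after both treatments. The effects of the cells themselves and of any dexamethasone carried with them cannot be told apart, and the AC and CpG groups differ in duration, so their responses are given side by side. The strain of the thymocytes given to each sample is not stated in the sources used here, and samples of different treatments in a strain may share mice, as the mice are given as 3 for each strain. Whether a replicate number marks a mouse is not stated, and the tests treat the samples as separate. Responses to AC and to CpG in a strain were measured against the same 3 control samples. All p-values measure the spread between these samples.

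NRF2 is held in the cytoplasm by KEAP1, which passes it to an E3 ligase for degradation. Oxidants and electrophiles modify cysteines of KEAP1, NRF2 then accumulates, enters the nucleus, pairs with a small MAF protein and binds antioxidant response elements near its targets. These targets supply the glutathione and thioredoxin systems, which in macrophages limit damage by oxidants that the cells make themselves. Because the activity of NRF2 is set mainly at the level of the protein, its own transcript is only a part of the picture.

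To show what the promoters of these genes hold, RefSeq promoter windows (build GRCm38.p6, from 250 bases before to 50 bases after the transcription start) were searched on both strands for TGACNNNGC, the core of the antioxidant response element. Windows were found for 8 of the 10 genes, with 3 alternative starts for *Txnrd1*, and *Gclc* and *Gsr* had no entry. The core was present for 5 of the 8 genes (*Nfe2l2*, *Gclm*, *Txnrd1* at 1 of its 3 starts, *Srxn1* and *Prdx1*). These 8 genes had 10 windows, and counted by window, 12.4% of 32851 mouse promoter windows held the core. It was not in the windows of *Keap1*, *Nqo1* or *Slc7a11*. The match in *Srxn1* runs past the transcription start, and its stretch is not printed. The stretches around the match are printed for 4 genes on the strand of the gene, with the core in capitals, which reads TGACNNNGC or its reverse complement. They lie at chr2:75704874-75704913 on the minus strand (*Nfe2l2*), and on the plus strand at chr3:122245402-122245452 (*Gclm*), chr10:82859093-82859143 (*Txnrd1*) and chr4:116685445-116685495 (*Prdx1*).
Nfe2l2: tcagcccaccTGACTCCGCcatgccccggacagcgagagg
Gclm: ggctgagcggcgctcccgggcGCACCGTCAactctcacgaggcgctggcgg
Txnrd1: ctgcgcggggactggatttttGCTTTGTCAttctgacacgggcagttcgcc
Prdx1: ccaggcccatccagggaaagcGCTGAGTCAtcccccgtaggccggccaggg

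In *Prdx1* the core overlaps a match to the AP-1 site TGACTCA, which reads TGAGTCA on the other strand. The AP-1 site was present in 5.20% of all promoter windows, and of these genes in *Srxn1* and *Prdx1*, with 2 matches each. Both stretches of *Srxn1* are shown for comparison with the core above, with the AP-1 site in capitals, from chr2:152105401-152105449 and chr2:152105458-152105506 on the plus strand. A match describes the letters only, and no binding was measured.
Srxn1, distal: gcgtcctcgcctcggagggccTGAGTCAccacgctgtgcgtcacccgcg
Srxn1, proximal: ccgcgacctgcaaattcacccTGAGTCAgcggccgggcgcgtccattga

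The libraries held 30688336 to 57139662 estimated counts (median 47912525), and the lowest count of any of the 10 genes in any sample was 406, for *Nqo1*. The cells carried the markers of their label, and all 8 macrophage markers examined were expressed, with a summed level of 15468 to 23693 CPM (counts relative to the scaled total of the library). All 12 thymocyte and T cell markers had a row, and 2 were expressed enough to be tested. Their summed level was 0.551 to 0.730 CPM in B6 control and 1.65 to 2.12 CPM in B6 AC, 0.710 to 1.23 CPM in SjSS control and 1.53 to 2.25 CPM in SjSS AC, and 0.618 to 1.24 CPM with CpG. *Rag1* was at 0 in the controls of both strains and *Trac* and *Dntt* in B6 control. The lowest value of any of the 10 genes in any sample was 7.87 CPM.

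Per kilobase of exon, *Prdx1* was the most abundant of the 10 transcripts in untreated B6 BMDMs, at 448 CPM per kb. *Srxn1* (141), *Txnrd1* (102), *Gclm* (90.2), *Gsr* (84.0) and *Nfe2l2* (72.8) followed on the same scale. *Gclc* (20.2), *Keap1* (16.0), *Slc7a11* (5.89) and *Nqo1* (5.48 CPM per kb) were the least abundant on this scale. The length was the union of all annotated exons, 13922 bases for *Slc7a11*. Without division by length, *Slc7a11* (82.1 CPM) was above *Gclc* (76.1 CPM) and *Keap1* (74.9 CPM). Of the subunits of glutamate-cysteine ligase, the modifier *Gclm* was thus above the catalytic *Gclc*.

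**Figure D1:**
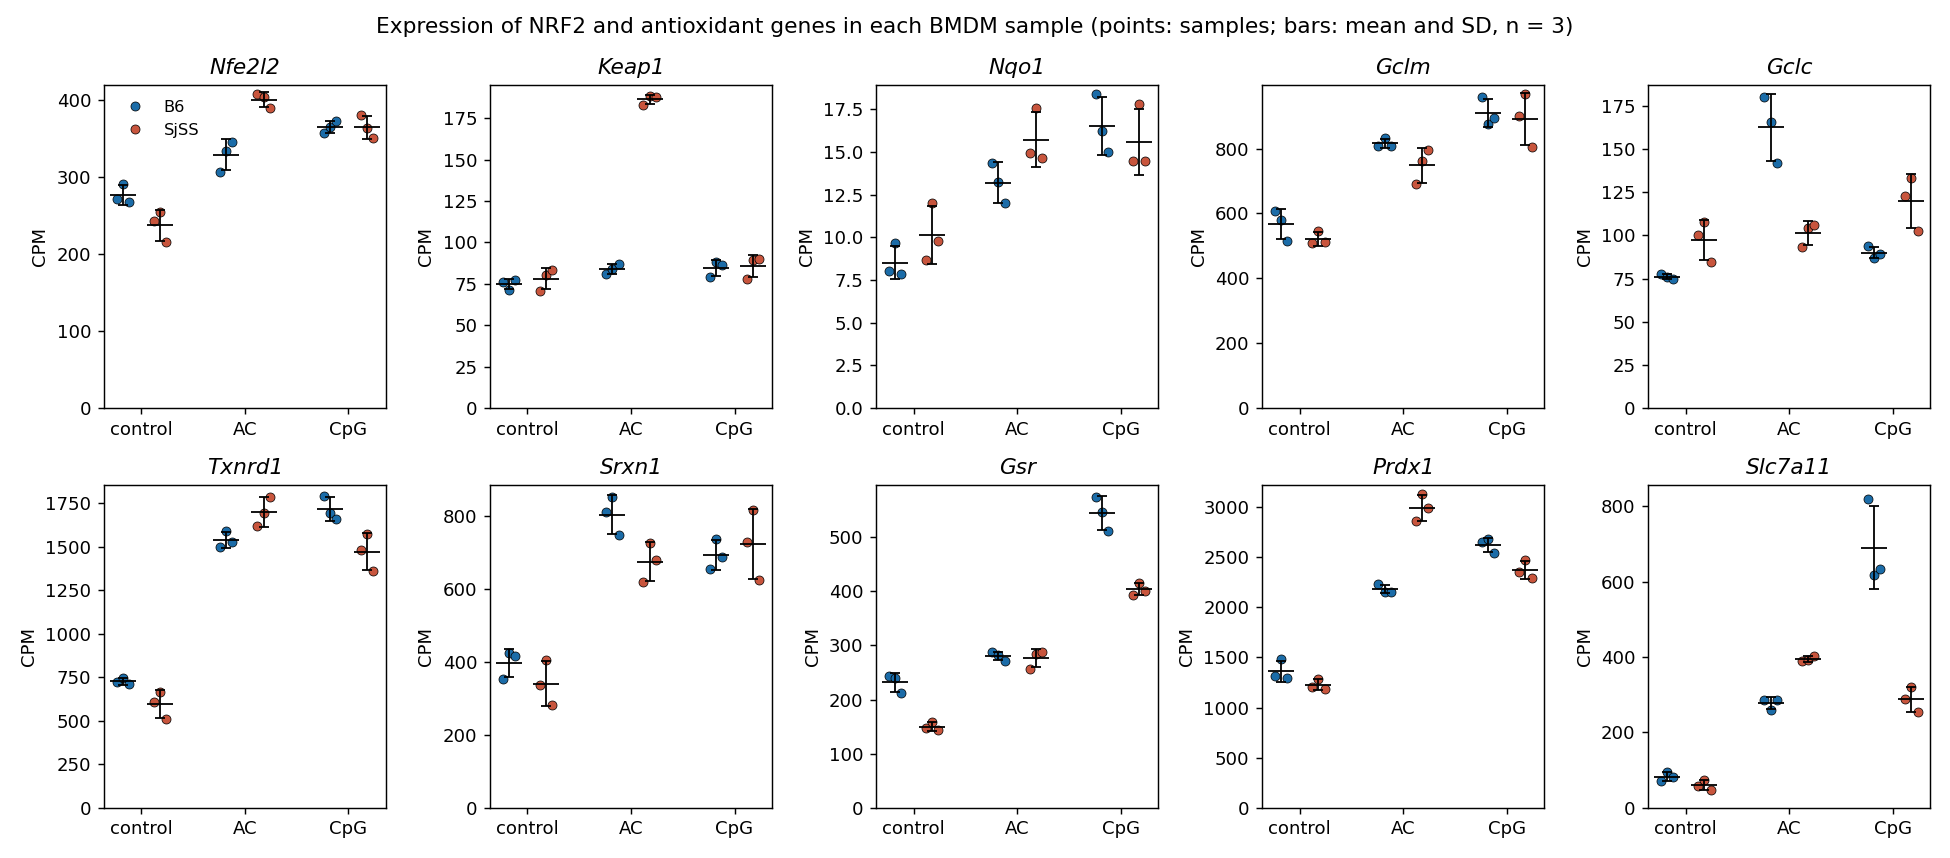
CPM (y axis, from 0) of each of the 10 genes in every BMDM sample of B6 (blue) and SjSS (red) mice, by treatment (x axis), with the mean and SD of 3 samples. *Keap1* stands out in the SjSS AC samples (183 to 188 CPM), *Gclc* in the B6 AC samples (142 to 180 CPM) and *Slc7a11* in the B6 CpG samples (618 to 819 CPM).

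Both treatments raised most of the 10 genes in both strains. A gene was taken as changed at an adjusted p under 0.05 in edgeR's quasi-likelihood test, Benjamini-Hochberg adjusted over all 15789 genes. AC raised 9 genes in B6 and 9 in SjSS BMDMs and lowered 0 in either. Of all genes tested, 20.0% rose and 18.3% fell with AC in B6, and 28.6% rose and 29.4% fell in SjSS. CpG raised 10 of the genes in B6 and 9 in SjSS and lowered 0, where 28.1% of all genes rose and 29.8% fell in B6 and 27.8% rose and 26.4% fell in SjSS. Without adjustment and with DESeq2's Wald test, 0 of the 10 genes were lower in these 4 comparisons as well. In bulk RNA, fewer cells of a type and less RNA per cell cannot be told apart.

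The exceptions differed by treatment and strain. *Keap1* did not pass the test with AC in B6 or with CpG in SjSS, and *Gclc* did not pass it with AC in SjSS. The median log2 fold change of the 10 genes was 0.66 with AC in B6, 0.94 with AC in SjSS, 0.87 with CpG in B6 and 0.86 with CpG in SjSS, while the medians over all genes lay between -0.04 and 0.00.

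Most of these changes were moderate. With the added threshold of a log2 fold change over 1.3, taken from the study's methods, *Slc7a11* was the only 1 of the 10 called with AC in B6 (4.47% of all genes) and with CpG in B6 (12.7%). *Slc7a11* and *Txnrd1* were called with AC in SjSS (12.9% of all genes), and *Slc7a11*, *Gsr* and *Txnrd1* with CpG in SjSS (9.26%).

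**Figure D2:**
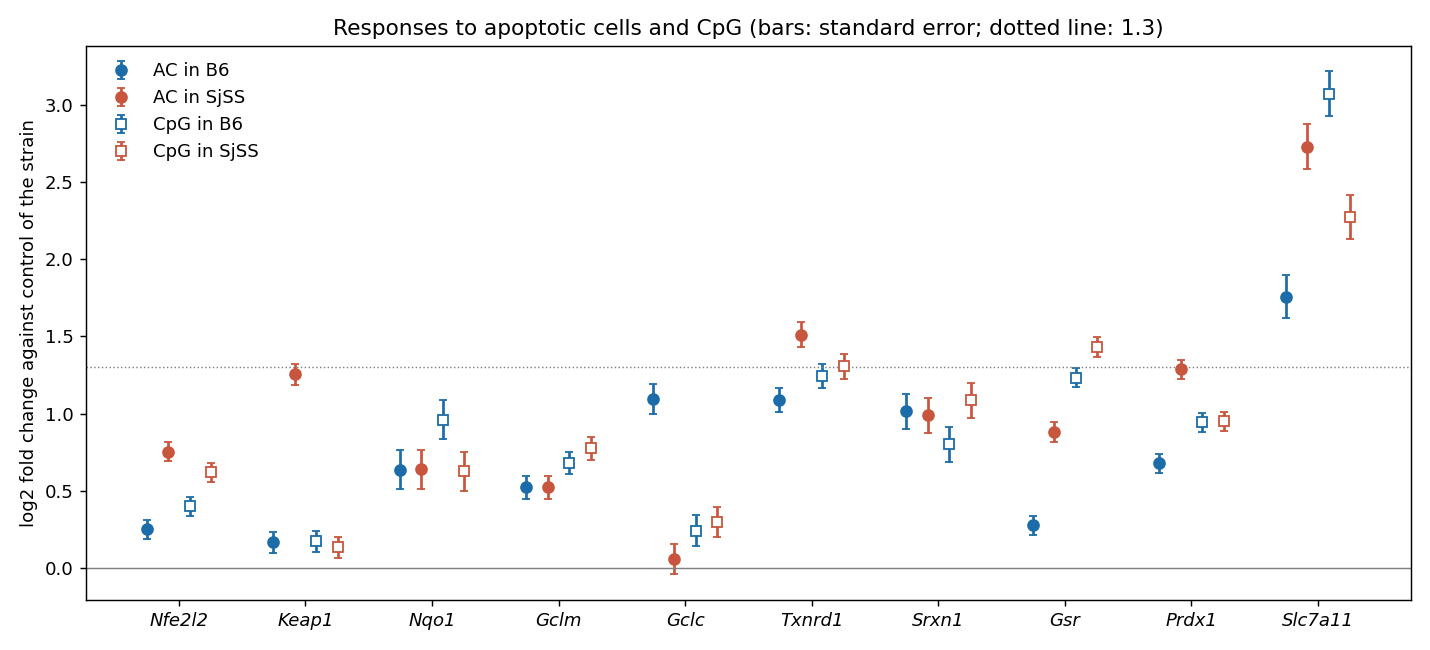
Log2 fold change against the untreated control of the same strain (y axis) for the 10 genes (x axis), with AC (filled circles) and CpG (open squares) in B6 (blue) and SjSS (red), with the standard error, and a dotted line at 1.3. *Slc7a11* lies highest in all 4 comparisons, between 1.76 and 3.07, and *Gclc* and *Keap1* each have 1 response apart from their other 3.

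*Nfe2l2* encodes NRF2 and lies on the minus strand of chromosome 2 (mm10, 75675513 to 75704642). In B6 BMDMs its level was 271, 291 and 267 CPM in the controls, 306, 334 and 346 CPM with AC and 357, 364 and 372 CPM with CpG. In SjSS BMDMs it was 242, 255 and 215 CPM in the controls, 408, 403 and 390 CPM with AC and 380, 363 and 350 CPM with CpG. The treated samples were above the controls in both strains with no overlap. On the scaled totals, SjSS BMDMs started lower and reached a higher level with AC. The scaling factors of the library totals were 0.833 to 0.838 in SjSS AC and 1.10 to 1.13 in SjSS control. In B6 they were 1.02 to 1.04 with AC and 1.06 to 1.09 in control. A lower factor gives a higher CPM at the same count and library total. Levels on unscaled totals were not tested. With AC *Nfe2l2* rose 1.19-fold in B6 (log2 fold change 0.25 ± 0.0622 SE, adjusted p = 0.00342) and 1.69-fold in SjSS (0.75 ± 0.0626, adjusted p = 4.27e-09). The difference between these responses, tested as the interaction of strain and AC, was 0.50 on the log2 scale (95% interval 0.32 to 0.69, adjusted p = 0.000162). With CpG it rose 1.32-fold in B6 and 1.54-fold in SjSS, and the interaction did not pass the test (0.22, 95% interval 0.03 to 0.40, adjusted p = 0.158).

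*Keap1*, the adaptor that targets NRF2 for degradation, lies on the minus strand of chromosome 9 (21229730 to 21239333). In B6 BMDMs its level was 76.3, 71.5 and 77.0 CPM in the controls, 81.0, 84.1 and 87.1 CPM with AC and 78.9, 88.4 and 86.3 CPM with CpG. In SjSS BMDMs it was 70.7, 80.3 and 83.3 CPM in the controls, 183, 188 and 188 CPM with AC and 77.8, 89.3 and 90.1 CPM with CpG. The 3 SjSS AC samples were thus far above the other 15, which all lay between 70.7 and 90.1 CPM. AC raised *Keap1* 2.39-fold in SjSS (1.25 ± 0.0679, adjusted p = 7.57e-12), whereas the difference in B6 was 1.12-fold and did not pass (adjusted p = 0.0604). With the replicate number as a block the B6 difference passed (adjusted p = 0.0238). The interaction of strain and AC was 1.09 (95% interval 0.89 to 1.29, adjusted p = 3.66e-08).

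With CpG, *Keap1* was 1.13-fold higher in B6 (adjusted p = 0.035) and 1.10-fold in SjSS, where samples overlapped and the test was not passed (adjusted p = 0.102). The small rise in B6 was lost when B6 control replicate 1 or 2 or B6 CpG replicate 2 or 3 was left out (adjusted p = 0.0526, 0.129, 0.127 and 0.0772), and that in SjSS passed with the replicate number as a block (0.0477), without SjSS control replicate 3 (0.0449) or SjSS CpG replicate 1 (0.022). *Gm16754* overlaps *Keap1* on the opposite strand, and its level was 5.70 to 7.05 CPM in SjSS AC against 2.81 to 3.02 CPM in SjSS control. The strandedness of the counting is not given in the sources used here, so reads of the pair cannot be told apart.

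To set the inhibitor against the factor, the ratio of *Keap1* to *Nfe2l2* CPM was computed in each sample. It was 0.272 ± 0.0231 (SD, n = 3) in B6 control, 0.256 ± 0.00715 in B6 AC and 0.232 ± 0.0109 in B6 CpG. In SjSS it was 0.332 ± 0.0496 in control, 0.466 ± 0.0162 in AC and 0.236 ± 0.0276 in CpG. The SjSS AC samples (0.449 to 0.482) lay above those of every other group, the highest of which was 0.387 in an SjSS control.

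Glutathione synthesis begins with cystine, which enters the cell through the exchanger xCT, encoded by *Slc7a11* on the minus strand of chromosome 3 (49892526 to 50443615). *Slc7a11* had the largest response of the 10 genes in all 4 treatment comparisons. In B6 BMDMs its level was 70.8, 95.3 and 80.1 CPM in the controls, 286, 259 and 287 CPM with AC and 819, 618 and 635 CPM with CpG. In SjSS BMDMs it was 58.7, 73.1 and 47.0 CPM in the controls, 389, 391 and 403 CPM with AC and 289, 319 and 254 CPM with CpG. The order of treatments on the scaled totals was reversed between strains, with CpG above AC in B6 and AC above CpG in SjSS, without overlap in either. The levels of B6 AC and SjSS CpG overlapped, as did those of the 2 control groups.

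AC raised *Slc7a11* 3.38-fold in B6 (1.76 ± 0.139, adjusted p = 1.1e-08) and 6.64-fold in SjSS (2.73 ± 0.144, adjusted p = 5.17e-12). CpG raised it 8.42-fold in B6 (3.07 ± 0.145, adjusted p = 1.34e-12) and 4.84-fold in SjSS (2.27 ± 0.142, adjusted p = 1.03e-10). Both interactions passed the test, in opposite directions. The AC response was greater in SjSS by 0.97 (95% interval 0.57 to 1.38, adjusted p = 0.000536) and the CpG response smaller by a log2 difference of -0.80 (95% interval -1.20 to -0.40, adjusted p = 0.0179). The latter did not pass without B6 control replicate 1 (-0.71, adjusted p = 0.0519) or SjSS control replicate 2 (-0.63, adjusted p = 0.0526). *Slc7a11* and *Gclm* lie on chromosome 3, which also holds the *Aec1* interval. Its bounds are not given in the sources used here, and reads of NOD alleles were aligned to a B6 genome, the effect of which was not tested.

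*Gclc*, on the plus strand of chromosome 9 (77754535 to 77794486), encodes the catalytic subunit of glutamate-cysteine ligase, the rate-limiting enzyme of glutathione synthesis. In B6 BMDMs its level was 77.7, 75.8 and 74.8 CPM in the controls, 180, 166 and 142 CPM with AC and 93.7, 87.1 and 89.3 CPM with CpG. In SjSS BMDMs it was 100.02, 108 and 84.7 CPM in the controls, 93.3, 104 and 106 CPM with AC and 123, 134 and 103 CPM with CpG. The B6 AC samples were above all other samples. AC raised *Gclc* 2.14-fold in B6 (1.10 ± 0.0983, adjusted p = 5.73e-08), while in SjSS the AC and control samples overlapped (1.04-fold, 0.06 ± 0.0978, 95% interval -0.15 to 0.26, adjusted p = 0.653). The interaction of strain and AC was -1.04 (95% interval -1.33 to -0.75, adjusted p = 7.98e-06), opposite in sign to those of the other genes that passed.

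With CpG, *Gclc* rose 1.18-fold in B6 (adjusted p = 0.041) and 1.23-fold in SjSS (adjusted p = 0.0148), the latter with overlapping samples. The call in B6 was lost whichever of its 6 libraries was left out (adjusted p from 0.0513 without B6 CpG replicate 2 to 0.116 without B6 CpG replicate 1). The call in SjSS was lost without SjSS control replicate 3 (0.101) or SjSS CpG replicate 2 (0.0973). *Gclc* was higher in untreated SjSS than in untreated B6 BMDMs (1.28-fold, adjusted p = 0.0157), except without SjSS control replicate 2 (0.0848).

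*Gclm*, the modifier subunit on the plus strand of chromosome 3 (122245557 to 122270733), did not share this difference. It ranged from 515 to 607 CPM in B6 control and 508 to 544 CPM in SjSS control, from 807 to 833 and 689 to 795 CPM with AC, and from 876 to 959 and 806 to 968 CPM with CpG. It rose 1.44-fold with AC in both strains (adjusted p = 1.41e-05 in B6 and 5.1e-06 in SjSS), and the 95% interval of the difference between these responses was -0.22 to 0.22. With CpG it rose 1.60-fold in B6 and 1.71-fold in SjSS. The ratio of *Gclc* to *Gclm* CPM within samples went from 0.135 ± 0.00925 (SD, n = 3) in B6 control to 0.199 ± 0.0238 in B6 AC, and from 0.187 ± 0.0182 in SjSS control to 0.135 ± 0.00158 in SjSS AC. The AC and control samples did not overlap in this ratio in either strain, and the direction was opposite. With CpG the ratio was lower than in control in both strains, at 0.0990 ± 0.00112 in B6 and 0.134 ± 0.00567 in SjSS. An overlapping gene on the opposite strand, *Gm17494*, was at 14.3 to 30.7 CPM.

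*Gsr*, glutathione reductase, returns oxidized glutathione to its reduced form and lies on the plus strand of chromosome 8 (33652523 to 33698164). In B6 BMDMs its level was 243, 239 and 212 CPM in the controls, 287, 282 and 271 CPM with AC and 574, 546 and 512 CPM with CpG. In SjSS BMDMs it was 147, 159 and 144 CPM in the controls, 257, 284 and 289 CPM with AC and 394, 416 and 401 CPM with CpG. CpG samples were highest in both strains, and the SjSS controls were lowest of all. AC raised *Gsr* 1.21-fold in B6 (0.28 ± 0.0634, adjusted p = 0.00185) and 1.84-fold in SjSS (0.88 ± 0.0641, adjusted p = 6e-10). The interaction was 0.61 (95% interval 0.42 to 0.80, adjusted p = 2.79e-05), and the levels with AC overlapped between strains (95% interval of the log2 difference -0.15 to 0.11). With CpG *Gsr* rose 2.35-fold in B6 and 2.69-fold in SjSS, and the interaction did not pass (0.19, 95% interval 0.01 to 0.38, adjusted p = 0.229).

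The thioredoxin system was represented by 3 genes. *Txnrd1*, cytosolic thioredoxin reductase, lies on the plus strand of chromosome 10 (82859206 to 82897725). It ranged from 709 to 744 CPM in B6 control, 1500 to 1592 CPM with AC and 1662 to 1793 CPM with CpG, and from 512 to 667, 1617 to 1787 and 1363 to 1573 CPM in the SjSS groups. Treated samples never overlapped the controls of their strain. AC raised it 2.12-fold in B6 (adjusted p = 3.09e-09) and 2.85-fold in SjSS (adjusted p = 4.25e-12), and the interaction was 0.43 ± 0.109 (95% interval 0.20 to 0.66, adjusted p = 0.00449). CpG raised it 2.37-fold in B6 and 2.47-fold in SjSS. *Eid3*, which lies within *Txnrd1* on the same strand, was at 0.416 to 2.46 CPM.

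*Prdx1*, a peroxiredoxin that reduces hydrogen peroxide, lies on the plus strand of chromosome 4 (116685544 to 116700823). It was at 1314, 1485 and 1293 CPM in B6 control, 2231, 2158 and 2157 CPM in B6 AC and 2649, 2679 and 2547 CPM in B6 CpG. In SjSS it was at 1206, 1288 and 1187 CPM in control, 2865, 3127 and 2991 CPM with AC and 2356, 2471 and 2289 CPM with CpG. As for *Slc7a11*, *Nfe2l2* and *Txnrd1*, CpG gave the higher level in B6 and AC the higher level in SjSS on the scaled totals, with no overlap. AC and CpG were not tested against each other. The share of all genes with this order was not computed, so the order is not read as particular to these genes. With AC *Prdx1* rose 1.60-fold in B6 (0.68 ± 0.06, adjusted p = 4.82e-08) and 2.44-fold in SjSS (1.29 ± 0.0607, adjusted p = 9.97e-13), with an interaction of 0.61 (95% interval 0.43 to 0.79, adjusted p = 1.34e-05). With CpG it rose 1.92-fold in B6 and 1.93-fold in SjSS, and the 95% interval of the difference was -0.17 to 0.18.

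*Srxn1*, sulfiredoxin, restores overoxidized peroxiredoxins and lies on the plus strand of chromosome 2 (152105516 to 152111377). It ranged from 353 to 424 CPM in B6 control, 748 to 853 CPM with AC and 654 to 737 CPM with CpG, and from 282 to 404, 620 to 727 and 624 to 816 CPM in the SjSS groups. The responses to AC were close, 2.02-fold in B6 (adjusted p = 9.96e-07) and 1.98-fold in SjSS (adjusted p = 4.31e-07), with a 95% interval of the difference of -0.36 to 0.31. CpG raised *Srxn1* 1.74-fold in B6 and 2.12-fold in SjSS, an interaction that did not pass the test (0.28, adjusted p = 0.338).

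*Nqo1*, a quinone reductase often used as a reporter of NRF2 activity, lies on the minus strand of chromosome 8 (107388225 to 107403207). Its level was 7.87 to 9.64 CPM in B6 control, 12.0 to 14.4 CPM with AC and 14.99 to 18.4 CPM with CpG. In SjSS the ranges were 8.66 to 12.0, 14.6 to 17.6 and 14.5 to 17.8 CPM. With AC it rose 1.56-fold in both strains (adjusted p = 0.000515 in B6 and 0.000239 in SjSS), with a 95% interval of the difference of -0.38 to 0.38. With CpG it rose 1.95-fold in B6 and 1.54-fold in SjSS, and the interaction did not pass (-0.33, 95% interval -0.71 to 0.04, adjusted p = 0.308).

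Over the 10 genes, the response to AC on the scaled totals differed between the strains in 7. It was greater in SjSS for 6 (*Nfe2l2*, *Keap1*, *Slc7a11*, *Gsr*, *Txnrd1* and *Prdx1*) and smaller for *Gclc*, where 19.6% of all genes tested had a higher and 18.3% a lower value in SjSS. *Nqo1*, *Gclm* and *Srxn1* did not pass. The response to CpG differed in 1, *Slc7a11*, which was lower, and was higher in 0, where 3.23% of all genes were higher and 2.62% lower. DESeq2 also gave 0 genes a higher CpG response in SjSS, and at an unadjusted p under 0.05 there were 2 (*Nfe2l2* and *Gsr*). No interaction of the 10 genes was over 1.3 in size, against 7.53% of all genes for AC and 0.614% for CpG. The median interaction of the 10 genes was 0.47 for AC and 0.06 for CpG, beside -0.01 and 0.03 over all genes.

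**Figure D3:**
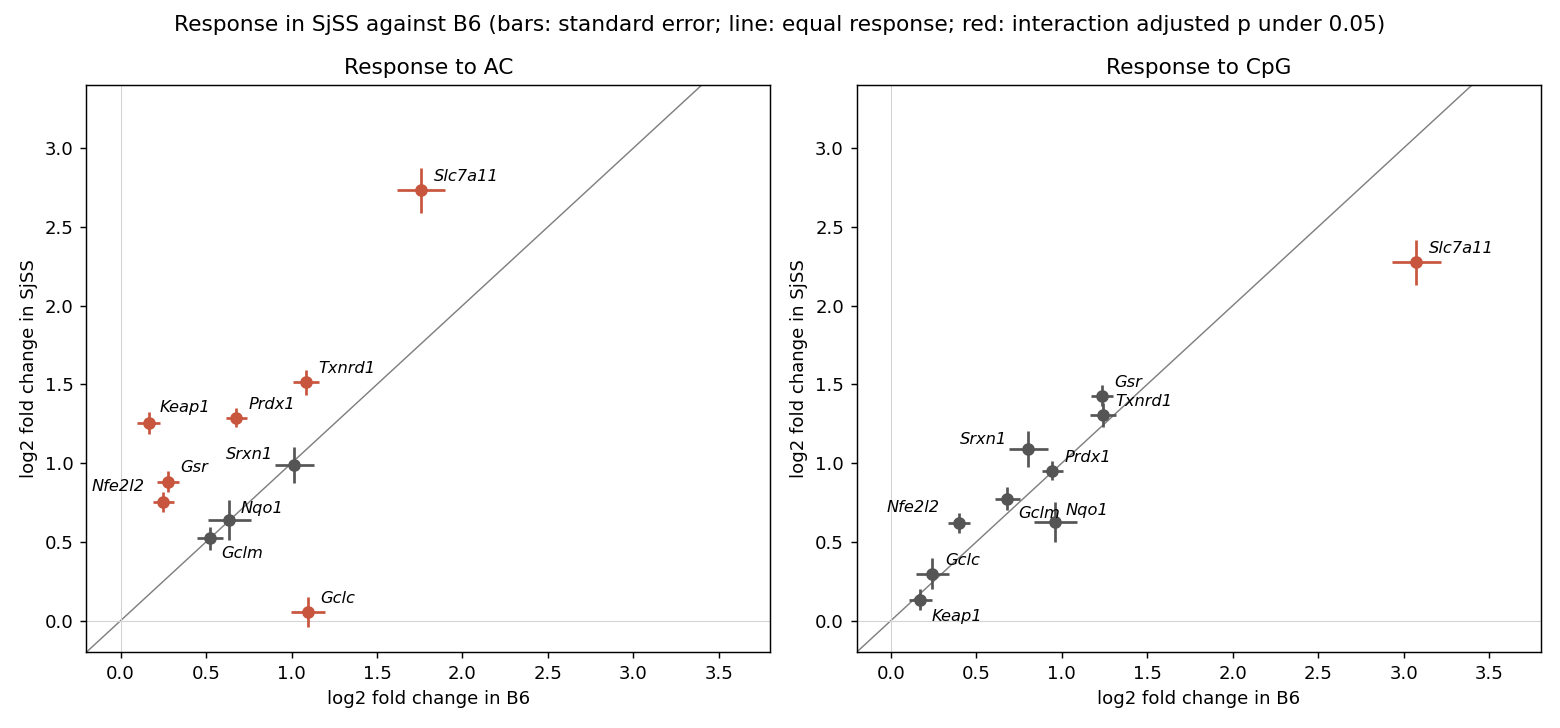
Log2 fold change in SjSS (y axis) against that in B6 (x axis) for AC (left) and CpG (right), with standard errors, the line of equal response, and in red the genes whose interaction had an adjusted p under 0.05. With AC 6 genes in red lie above the line and *Gclc* below it (1.10 in B6, 0.06 in SjSS), and with CpG *Slc7a11* alone is in red (3.07 in B6, 2.27 in SjSS).

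Levels were also compared directly between strains. Without treatment, 4 of the 10 genes were lower in SjSS and 1 was higher, where 10.6% of all genes were lower and 9.04% higher. *Gsr* differed the most, at 0.648 of the B6 level (adjusted p = 1.79e-06). *Slc7a11* (0.724, adjusted p = 0.0229, with overlapping samples), *Txnrd1* (0.821, adjusted p = 0.0143) and *Nfe2l2* (0.859, adjusted p = 0.0185) were also lower, and *Gclc* was higher. Without B6 control replicate 2 the calls of *Slc7a11*, *Txnrd1* and *Nfe2l2* were lost (adjusted p = 0.135, 0.0586 and 0.102), as they were without SjSS control replicate 3 (0.132, 0.0834 and 0.107). That of *Slc7a11* was also lost without SjSS control replicate 1 (0.057), while *Srxn1* became lower without SjSS control replicate 2 (0.0359). The call of *Gsr* was kept in every such fit.

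With AC, on the scaled totals, 4 of the 10 genes were higher in SjSS and 1 was lower, where 24.0% of all genes were higher and 25.5% lower. The median size of the log2 difference was 0.27 for the 10 genes and 0.34 over all genes. *Keap1* was 2.22-fold higher (adjusted p = 6.12e-11), *Slc7a11* 1.42-fold (adjusted p = 0.00412), *Prdx1* 1.37-fold (adjusted p = 3.9e-06) and *Nfe2l2* 1.22-fold (adjusted p = 0.000903). *Gclc* was at 0.622 of the B6 level (adjusted p = 1.08e-05). *Gsr*, lower without treatment, was not called with AC (0.987, adjusted p = 0.827).

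With CpG, 1 gene was higher in SjSS (*Gclc*, 1.33-fold, adjusted p = 0.00568) and 2 were lower, *Slc7a11* at 0.416 (adjusted p = 2.67e-06) and *Gsr* at 0.742 of the B6 level (adjusted p = 7.64e-05). Of all genes, 10.2% were higher and 9.57% lower. *Nfe2l2* was at 364 CPM in both strains (95% interval of the log2 difference -0.13 to 0.13). *Txnrd1* was close to the threshold (0.858, adjusted p = 0.0508) and passed without B6 CpG replicate 3 (0.0396) or SjSS CpG replicate 2 (0.042). In the 3 strain comparisons no gene of the 10 was past a log2 fold change of 1.3, against 2.01% of all genes without treatment, 8.93% with AC and 2.61% with CpG.

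Markers of other cells differed between strains and treatments too. The summed level of 5 fibroblast markers, all tested, was 38.6 to 133 CPM over the B6 samples and 148 to 232 CPM over the SjSS samples. That of 5 of 8 neutrophil markers in the table, 3 of them tested, was 3.57 to 5.26 CPM in B6 control, 3.12 to 3.57 CPM in B6 AC and 11.2 to 13.1 CPM in B6 CpG, and 2.57 to 3.00, 2.47 to 3.13 and 5.63 to 6.01 CPM in the SjSS groups, with *Camp* and *Ngp* at 0 in SjSS control. The 5 B cell markers, 4 of them tested, summed to 9.41 to 26.8 CPM. Macrophage markers moved with AC as well: the 8 summed to 18127 to 19020 CPM in B6 control and 15705 to 16656 CPM in B6 AC, and to 15468 to 16229 CPM in SjSS control and 17765 to 18574 CPM in SjSS AC. In the interaction with AC, 5 of the 8 passed and were higher in SjSS and 0 were lower, where 19.6% of all genes were higher and 18.3% lower. The part of these markers in the results was not tested.

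Beyond the 10 genes, 87 genes of the surrounding pathway were followed in 6 lists, and 84 of them passed the filter. With AC 32 rose and 13 fell in B6 (20.0% and 18.3% of all genes), and 39 rose and 13 fell in SjSS (28.6% and 29.4%). With CpG 38 rose and 29 fell in B6 (28.1% and 29.8% of all genes), and 31 rose and 30 fell in SjSS (27.8% and 26.4%). The counts of the single lists that follow are to be read against the same shares. Their median log2 fold changes, 0.10 and 0.20 with AC and 0.08 and 0.01 with CpG, were lower than those of the 10 genes. The AC response was greater in SjSS for 23 and smaller for 8 at an adjusted p under 0.05 (19.6% and 18.3% of all genes), and the CpG response for 4 and 1 (3.23% and 2.62%).

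**Figure D4:**
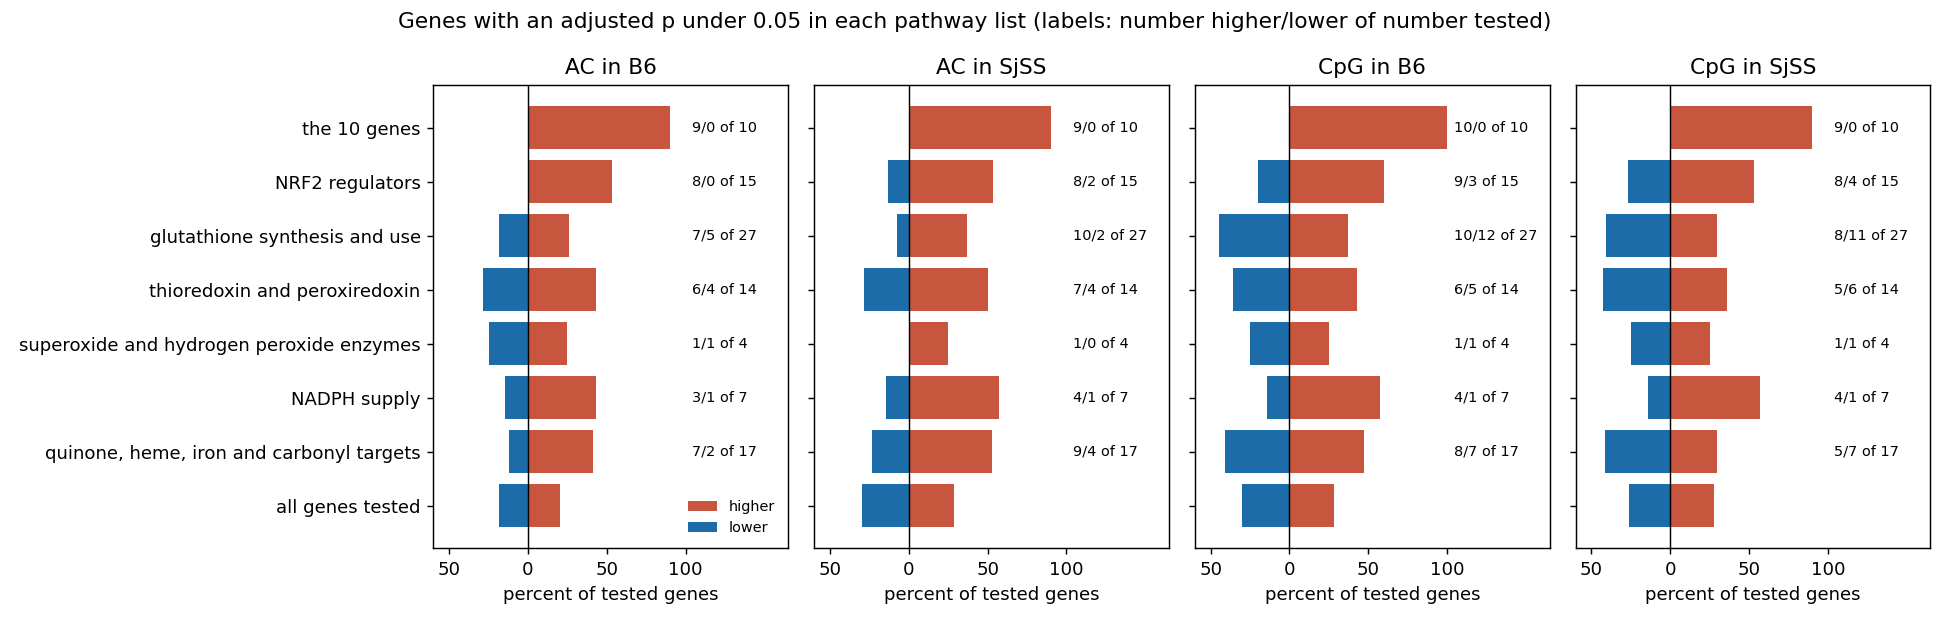
Percent of the tested genes of each list that were higher (red, to the right) or lower (blue, to the left) at an adjusted p under 0.05, in each treatment comparison, with the number higher and lower of the number tested and all genes tested as the lowest bar. The 10 genes have bars to the right alone, while the glutathione list with CpG has 10 higher and 12 lower of 27 in B6 and 8 higher and 11 lower in SjSS.

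Among 15 regulators of NRF2, 8 rose with AC in B6, 8 rose and 2 fell with AC in SjSS, 9 rose and 3 fell with CpG in B6, and 8 rose and 4 fell with CpG in SjSS. *Sqstm1* encodes p62, which binds KEAP1 and diverts it to autophagy. It went from 954 ± 89.6 (SD, n = 3) to 3033 ± 230 CPM with AC in B6 and from 990 ± 130 to 4012 ± 213 CPM in SjSS (adjusted p = 8.37e-10 and 8.53e-12). *Maff*, a small MAF protein and partner of NRF2, rose 1.04 on the log2 scale with AC in B6 and 3.27 in SjSS, an interaction of 2.23 (adjusted p = 1.03e-06). *Palb2*, a DNA repair protein that can bind KEAP1, fell by 1.25 on the log2 scale with AC in SjSS (adjusted p = 1.33e-07) and by 1.03 and 0.86 with CpG in B6 and SjSS. Its difference in B6 was -0.08 (adjusted p = 0.656).

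A pair of genes was chosen after their values were seen, for being highest in SjSS AC, and is described without a test. *Bach1*, a repressor that competes with NRF2 for its elements, was at 213 ± 23.3 CPM in SjSS control and 558 ± 26.9 CPM in SjSS AC, and at 216 ± 8.21 and 198 ± 5.95 CPM in B6. *Mafk*, another small MAF protein that pairs with NRF2 or BACH1, was at 40.7 ± 5.06 and 221 ± 11.8 CPM in SjSS and 42.3 ± 1.79 and 52.6 ± 0.439 CPM in B6. *Mafg*, the remaining small MAF protein of the list, did not share this pattern. It was at 150 ± 9.13 CPM in SjSS control and 146 ± 4.99 CPM in SjSS AC, and at 159 ± 4.49 and 192 ± 4.42 CPM in B6.

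Of 27 tested genes of glutathione synthesis and use, 7 rose and 5 fell with AC in B6, near the shares of all genes (20.0% and 18.3%), and 10 rose and 2 fell in SjSS (28.6% and 29.4% of all genes). *Ggct*, gamma-glutamylcyclotransferase of the glutathione cycle, rose 2.28 on the log2 scale with AC in SjSS and 0.75 in B6, an interaction of 1.52 (adjusted p = 4.15e-08), and reached 16.0 ± 1.25 CPM. *Oplah*, the next enzyme of that cycle, fell by 1.04 on the log2 scale with AC in B6, by 0.67 with AC in SjSS and by 1.08 and 0.99 with CpG. *Chac1*, which degrades glutathione, rose with AC and with CpG in B6 (1.56 and 2.53, adjusted p = 0.0281 and 0.000332) at very low levels. *Gstt1*, a glutathione transferase of low level, rose by 1.83 and 1.70 with CpG in B6 and SjSS, and its relative *Gstt2* fell by 0.75 and 1.25.

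Among 14 genes of the thioredoxin and peroxiredoxin list, 6 rose and 4 fell with AC in B6 and 7 rose and 4 fell in SjSS. *Txn1*, the substrate of *Txnrd1*, rose 0.41 on the log2 scale with AC in B6 and 0.98 in SjSS (interaction 0.56, adjusted p = 1.43e-06), and 1.03 and 0.98 with CpG. *Prdx5* rose 0.23 and 1.04 with AC (interaction 0.80, adjusted p = 1.26e-07) and 1.44 and 1.19 with CpG. *Sesn1*, a sestrin induced by p53 and FOXO factors, fell in all 4 comparisons, by 0.91 with AC in B6 and by 3.15 with AC in SjSS (interaction -2.24, adjusted p = 9.56e-10).

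Mitochondrial superoxide dismutase, *Sod2*, is known as a target of NF-κB more than of NRF2, and it rose in all 4 comparisons. Its level was 136 ± 2.86 CPM in B6 control, 469 ± 28.7 CPM with AC and 1536 ± 108 CPM with CpG, and 74.6 ± 1.61, 744 ± 29.8 and 1087 ± 43.1 CPM in SjSS. The AC response was greater in SjSS by 1.53 (adjusted p = 1.23e-10). The others of its list that passed were *Cat*, catalase, which fell by 0.17 with AC in B6, and *Sod1*, cytosolic superoxide dismutase, which fell by 0.18 and 0.24 with CpG in B6 and SjSS. *Sod3*, the extracellular form, had a mean of 0.264 to 1.05 CPM in the 6 groups and did not pass in the 4 treatment comparisons (log2 fold changes -0.54 to 0.70). In the NADPH supply list of 7 genes, *Me1*, malic enzyme, rose in all 4 comparisons (0.60 to 1.49 on the log2 scale), and *Idh1*, cytosolic isocitrate dehydrogenase, fell in all 4, by 0.50 and 0.37 with AC in B6 and SjSS and by 1.87 and 1.19 with CpG.

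Of 17 tested genes for quinone, heme, iron and carbonyl handling, 7 rose and 2 fell with AC in B6 and 9 rose and 4 fell in SjSS. *Hmox1*, heme oxygenase, a target of NRF2 that BACH1 represses, was at 1458 ± 133 CPM in B6 control and 7838 ± 366 CPM in B6 AC, and at 1245 ± 121 and 5933 ± 490 CPM in SjSS. It rose by 2.43 and 2.25 on the log2 scale, and the interaction did not pass the test (-0.17, adjusted p = 0.331). With CpG it rose by 1.04 and 0.94. *Ephx1*, epoxide hydrolase, fell by 0.94 with AC in B6 and rose by 0.34 in SjSS (interaction 1.28, adjusted p = 5.81e-09). *Osgin1*, a growth inhibitor induced by oxidative stress, rose by 0.70 with AC in B6 and fell by 1.02 in SjSS (interaction -1.72, adjusted p = 1.06e-05), and fell by 1.47 and 1.11 with CpG.

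The genes whose levels most resembled those of *Nfe2l2* and *Slc7a11* were looked up by Pearson correlation of log2 CPM over the 18 samples. For *Nfe2l2* they were *Cd14* (0.980), *Ednrb* (0.974) and *Rap1b* (0.971). For *Slc7a11* they were *Mina* (0.984), *Morf4l2* (0.981) and *Plek* (0.977). The genes were measured in the same libraries, which fall into the same strains and treatments, so these values describe likeness of pattern alone.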

How the data were processed

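RNA-seq was performed on 18 BMDM samples, 3 in each of 6 groups, which were assigned from the labels. Reads had been aligned by STAR (mm10) and assigned to genes by the E/M method of Partek Flow, and the authors deposited estimated counts per gene, not normalized (41.1% were not whole, tolerance 1e-06), so reads shared between genes are split by the model. These were rounded to whole numbers. Genes were filtered by edgeR's filterByExpr (15789 of 20615 kept), scaled by TMM, and fitted with 1 mean per group over all 18 samples by the quasi-likelihood method, with Benjamini-Hochberg adjustment within each of 9 comparisons: AC and CpG in each strain, the strains in each treatment, and the 2 interactions. Standard errors are the log2 fold change divided by the square root of F, intervals are 95%, and CPM use TMM-scaled totals. The TMM factors differed by group, at 0.833 to 0.838 in SjSS AC and 1.10 to 1.13 in SjSS control. In B6 they were 1.02 to 1.04 with AC and 1.06 to 1.09 in control. Differences on unscaled totals were not tested.

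Tests ran in R 4.3.3 (edgeR 4.0.16, limma 3.58.1, DESeq2 1.42.0), tables in Python 3.11.15 with numpy 2.4.6 and pandas 2.3.3, and plots with matplotlib 3.10.9. The 10 genes and the pathway and marker lists were chosen with earlier results of these data known. In each pathway list, the gene with the largest rise and that with the largest fall per treatment comparison were named, and for likeness the 3 genes with the highest correlation among those with a mean of at least 1 CPM. Coordinates are those of the deposited table, and for 8 of the 10 genes they match GENCODE M21 with the end 1 base less. Exon lengths are from GENCODE M21. Alternatives were DESeq2's Wald test, its size factors in edgeR, no filter, a filter of 10 counts in 3 samples, the log2 threshold of 1.3, only the groups compared, the replicate number as a block, and each of 18 samples left out in turn.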

Additional observations from a re-analysis of the deposited data

Results flagged for a closer look

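Of the responses of the 10 genes to AC and to CpG, 8 differed between the strains, with *Slc7a11* counted for both treatments. The test was that of the interaction itself (edgeR's quasi-likelihood test on TMM-scaled totals, SjSS minus B6, log2 scale). Of all genes tested, 19.6% were higher and 18.3% lower in the interaction with AC, and 3.23% and 2.62% in that with CpG. For AC the differences were 0.50 for *Nfe2l2* (adjusted p = 0.000162), 1.09 for *Keap1* (3.66e-08), 0.97 for *Slc7a11* (0.000536), 0.61 for *Gsr* (2.79e-05), 0.43 for *Txnrd1* (0.00449) and 0.61 for *Prdx1* (1.34e-05). For *Gclc* the difference was -1.04 (7.98e-06), as AC raised it in B6 (2.14-fold) and was not shown to change it in SjSS (1.04-fold). For CpG the difference was -0.80 for *Slc7a11* (0.0179). *Slc7a11* thus differed with both treatments, in opposite directions, and both differences rest on the same control samples. No test for outlying samples was run within the groups of 3. Fits that left out each sample in turn are given below.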

How the results depend on the processing

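No called change of the 10 genes reversed in direction under the alternatives run. All of them scaled the libraries, by TMM or by DESeq2's size factors, and unscaled totals were not among them. With a log2 fold change over 1.3, fewer genes were called. The number was 1 with AC in B6 (9 without that threshold) and 2 with AC in SjSS (9). With CpG it was 1 in B6 (10) and 3 in SjSS (9). It was 0 in the 3 strain comparisons (5 untreated, 5 with AC, 3 with CpG) and in the interactions with AC (7) and CpG (1). By construction, the stricter rule can only lower these counts or leave them as they are. Fitting only the groups compared gave 2 for the strains untreated, 8 for the strains with AC and 0 for the interaction with CpG, where *Slc7a11* had an adjusted p = 0.0595. DESeq2's Wald test gave 5 for the strains with CpG, adding *Txnrd1* and *Prdx1* (adjusted p = 0.0154 and 0.0183). The cause of these moves was not tested.

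Leaving out each sample in turn gave 2 to 5 genes for the strains untreated and 0 to 1 for the interaction with CpG. The range was 9 to 9 for AC in each strain, 8 to 9 for CpG in B6, 8 to 10 for CpG in SjSS, 5 to 5 for the strains with AC, 3 to 4 for the strains with CpG and 7 to 7 for the interaction with AC. Without a filter on low counts, the rises of *Keap1* and *Gclc* with CpG in B6 did not pass (adjusted p = 0.0713 and 0.0655).

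Samples with the same replicate number deviated together weakly: r was 0.0198 to 0.264 over 18 pairs, over 0.1 in 9 (among them the 3 pairs of B6 control and B6 CpG), and in 16 of the pairs the best match was the own number, a hint from the data. As the numbers are not stated to mark a mouse, the replicates were not blocked in the results above. With the replicate number as a block, 5 genes differed between the strains with CpG, and 6 calls were added over the 9 comparisons and 0 lost. These were *Keap1* with AC in B6 and with CpG in SjSS (adjusted p = 0.0238 and 0.0477), *Prdx1* for the strains untreated and with CpG (0.0415 and 0.0481), *Srxn1* for the strains with AC (0.0191) and *Txnrd1* for the strains with CpG (0.0326). Depth limits *Nqo1* the most, with 406 to 912 counts per sample.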
